A study of Mus musculus with 12 samples.

Results

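The genes described here are the nuclear genes for 3 enzymes of mitochondrial oxidative phosphorylation: complex III (cytochrome bc1), complex IV (cytochrome c oxidase) and complex V (ATP synthase). They were chosen by name from the mouse gene symbols, as every protein-coding gene on a nuclear chromosome whose symbol begins with *Uqcr*, *Uqcc*, *Atp5*, or *Cox* and a digit, and 2 pseudogenes were left out. Of 27179 genes in the count table, 55 met this rule: 11 genes of complex III, 27 of complex IV and 17 of complex V. By role they comprise 42 genes for subunits of the enzymes, 12 for factors that build them, and *Cox7a2l*, a factor that joins complex III to complex IV. The rule used no measured value, although the genes were chosen with earlier results of these data known.

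*FRAIL1* is a human long noncoding RNA that rises with age in skeletal muscle, and the study asked what it does when it is forced into mouse muscle. Poly(A)-selected RNA was sequenced from 12 tibialis anterior (TA) muscles, a fast muscle of the shin, 7 days after electroporation with 10 μg of plasmid. The 6 Control muscles received the empty plasmid (pcDNA3) and the 6 *FRAIL1* muscles the plasmid with *FRAIL1*, driven by the cytomegalovirus promoter. All were from male C57BL/6N mice of WT genotype, obtained at 6 to 8 weeks of age and used within 2 weeks. All were injected with hyaluronidase before the plasmid, so the Control muscles went through the same injections and pulses. The extent of injury in each muscle was not measured. Each mouse gave both muscles, 1 per leg, but the labels do not say which muscles share a mouse, and the muscles of a group are named here by their labelled number. Each library holds whole muscle, with fibers that took up the plasmid, fibers that did not, and the cells between them, so fewer cells of a type and less RNA per cell cannot be told apart. The human RNA has no row in the mouse count table, and its level was not analysed here.

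Complex III takes electrons from ubiquinol and passes them to cytochrome c. Complex IV passes them on to oxygen, both enzymes pump protons across the inner mitochondrial membrane, and complex V uses the returning protons to make ATP. Each enzyme is built from proteins of both genomes. The mitochondrial genome encodes cytochrome b (CYTB) of complex III, COX1, COX2 and COX3 of complex IV, and ATP6 and ATP8 of complex V. The nucleus encodes the other subunits and all assembly factors. Several small subunits of complex IV have a form made in heart and skeletal muscle (*Cox6a2*, *Cox7a1*, *Cox8b*) and a form made in most tissues (*Cox6a1*, *Cox7a2*, *Cox8a*), and skeletal muscle moves from the widespread to the muscle forms as it matures.

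The libraries held 44848322 to 60527385 counts. The 55 genes took 1.56 to 1.82% of the counts in Control and 1.59 to 1.86% in *FRAIL1* muscles. Levels are given as CPM, counts per 1000000 of a library's total, scaled with TMM factors of 0.935 to 0.983 for Control and 0.965 to 1.19 for *FRAIL1* muscles, the highest being that of *FRAIL1* muscle 5. Scaling by total counts without these factors moved the median log2 fold change of all genes from 0.0096 to 0.156, so directions of small differences below hold relative to the TMM scale. The fast-fiber genes that mark this muscle were present in every library, at a summed level of 157571 to 180796 CPM in Control and 116449 to 166269 CPM in *FRAIL1* muscles.

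Most nuclear genes of complexes III, IV and V did not differ between the groups beyond the spread of the muscles, and what passed a test lay in complex IV. Of the 52 genes with enough counts to test, 1 was higher in *FRAIL1* muscles (1.92%), *Cox6a1*, and 0 were lower (edgeR, adjusted p under 0.05). Over all 15502 genes tested, 974 passed (6.28%), 687 of them higher (4.43%) and 287 lower (1.85%), or 2480 higher and 147 lower without the TMM factors. Before adjustment, 4 members were higher (7.69%) and 8 lower (15.4%) at p under 0.05, against 15.2% of all genes higher and 12.5% lower (27.7% in either direction), and DESeq2 called *Cox8b* as lower. The members' share was thus below that of all genes among calls and among higher values, and near it among lower values before adjustment. The CPM of the groups did not overlap in 2 members, *Cox6a1* and *Cox18*, both higher in *FRAIL1* muscles, against 4.88% of all genes (3.12% higher and 1.77% lower). The medians of the log2 fold changes were −0.042 for complex III, −0.040 for complex IV and −0.050 for complex V, beside 0.0096 for all genes. Single muscles moved these medians: without Control muscle 6 they were −0.0056, −0.0014 and −0.0089, and the lowest with 1 muscle left out were −0.084 for complex III (without *FRAIL1* muscle 6), −0.065 for complex IV (*FRAIL1* muscle 1) and −0.078 for complex V (Control muscle 1).

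**Figure D1:**
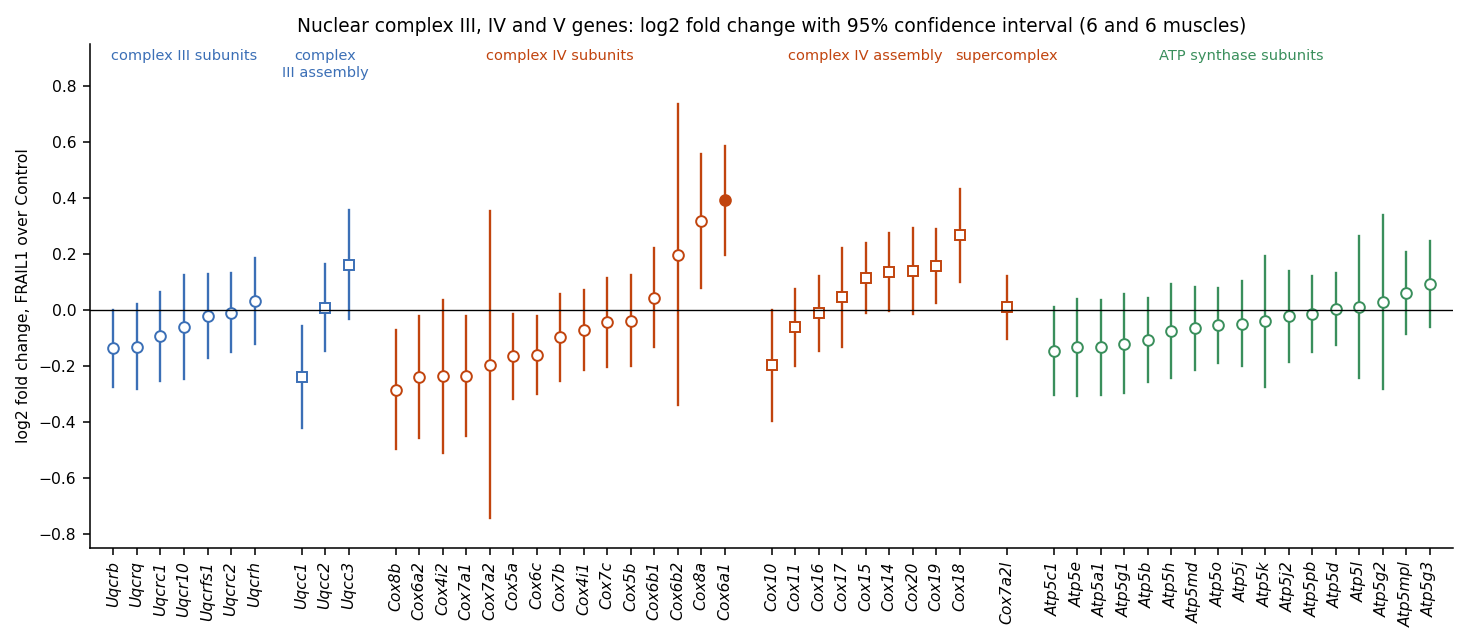
Log2 fold change of *FRAIL1* over Control muscles on the TMM scale for the 52 members tested, by complex and role, with 95% confidence intervals. Circles are subunits, squares assembly or supercomplex factors, and the filled circle is the gene past the threshold, *Cox6a1* (0.39). The values run from -0.29 (*Cox8b*) to 0.39, 33 of 52 are below 0, and without the TMM factors 10 are.

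Among the members, 29 of 39 subunit genes tested had negative log2 fold changes (median −0.061), and 8 of 12 assembly factors had positive ones (median 0.079). In complex IV the median was −0.099 over 15 subunits and 0.113 over 9 assembly factors. This split did not extend to assembly factors with other names: of 17 tested from a list of other genes of these enzymes, all 17 had negative values (median −0.0746), and over both sets 21 of 29 assembly factors were negative (median −0.0546), or 7 of 29 without the TMM factors. Without the TMM factors 42 of the 52 members had positive log2 fold changes, while 35 of 52 stayed below the median of all genes in that scaling, as 36 of 52 did with them. These counts are a description, without a test, of lists whose members share muscles and cells.

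Levels of the genes spanned a wide range within each enzyme. They are given here per kilobase of a single annotated transcript per gene. This adjusts for that length but not for any reads lost where near-identical sequence lies elsewhere, so ranks between genes are approximate. On this scale the highest level in Control muscles was that of *Atp5b*, the catalytic beta subunit of ATP synthase, at 1908 CPM per kilobase. It was followed by *Cox4i1*, the largest nuclear subunit of complex IV, at 1339, and *Atp5a1*, the alpha subunit, at 1177. In complex III the highest were *Uqcrq*, a small membrane subunit, at 984 and the core protein *Uqcrc1* at 500.1. The muscle forms of complex IV lay close together at 796 (*Cox7a1*), 744 (*Cox8b*) and 736 (*Cox6a2*), and the widespread forms far below them at 71.3 (*Cox6a1*), 55.4 (*Cox8a*) and 1.61 (*Cox7a2*). Assembly factors were lower than most subunits, down to 4.62 for *Cox18*.

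**Figure D2:**
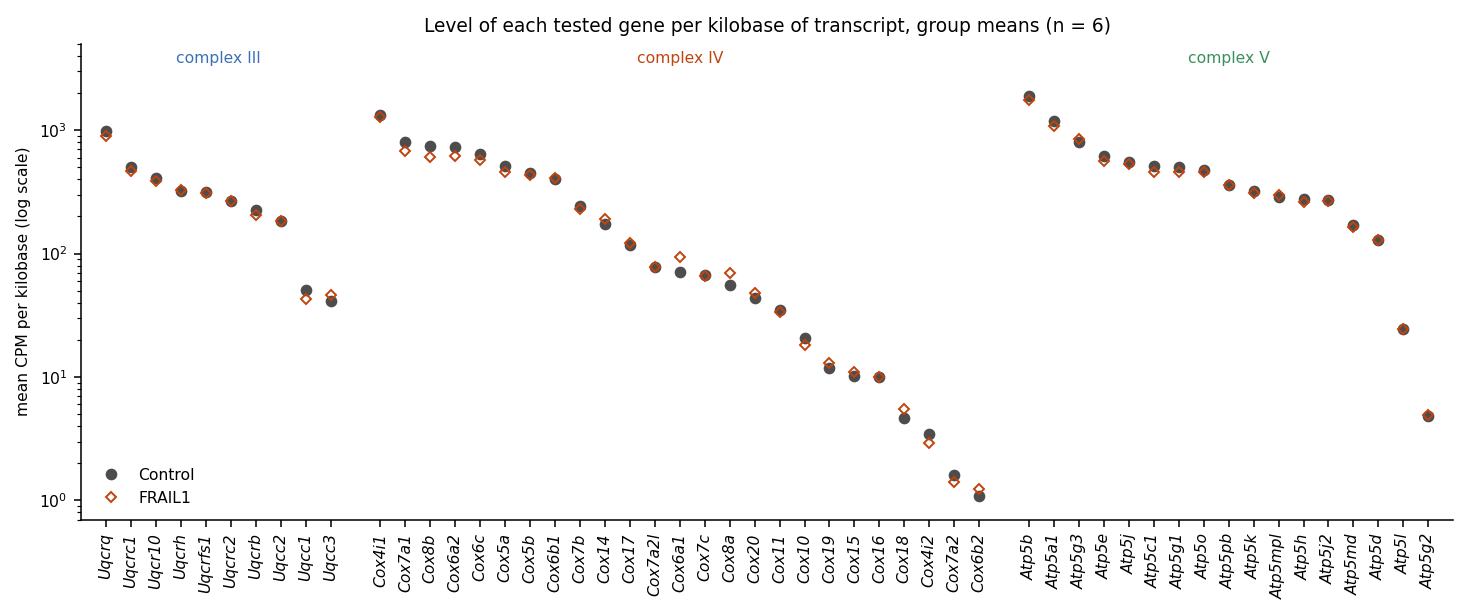
Mean CPM per kilobase of transcript on a log scale for the 52 members tested, in 6 Control (filled circles) and 6 *FRAIL1* muscles (open diamonds), ordered within each complex by the Control level. Control levels run from 1908 (*Atp5b*) to 1.08 (*Cox6b2*), and *Cox6a1* rises from 71.3 to 93.5.

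Among the members 3 could not be tested. No read was counted for *Cox7b2* and *Cox8c*, forms of complex IV subunits known from testis, in any of the 12 muscles, and 3 counts in the smallest library would be 0.0669 CPM. *Uqcr11*, a small subunit of complex III, had 0 to 4 counts per muscle, and 38.4% of its transcript is matched at 98% identity or more by the gene model *Gm16418*. Of the 55 members, 20 have such a match, of at least 100 bases, in an annotated transcript of another gene. Some of these genes overlap the member at its own place in the genome, such as *Hnrnpu* for *Cox20* and *Tom1l1* for *Cox11*, and are no second copy. Matches elsewhere bear on the counts, since only reads that mapped to a single place were counted. Matches elsewhere cover the whole transcript of *Atp5g2* (100% of its bases), nearly all of that of *Atp5h* (99.8%) and 69.0% of that of *Atp5g1*. They cover 0% of *Atp5g3*, *Cox6a1*, *Cox6a2*, *Cox7a1*, *Cox7a2*, *Cox8a* and *Cox8b*. Copies outside annotated transcripts were not searched, so the 0% does not show that no reads of these genes were lost. Genes on opposite strands that overlap members, such as *Hnrnpu* over 91.1% of the exons of *Cox20* and *Itgad* over 10.3% of those of *Cox6a2*, may share reads with them, as the strand setting of the counting was not given in the sources used here.

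The clearest difference was in the balance between muscle and widespread isoforms of complex IV. Subunit 6A is a small subunit of the enzyme. Its widespread form, *Cox6a1* (chr5:115345652-115348958 of GRCm38, minus strand), ranged from 36.7 to 43.5 CPM in Control muscles with a median of 41.6, and from 43.8 to 67.3 in *FRAIL1* muscles with a median of 54.1. The groups did not overlap, and *FRAIL1* muscle 5 was the highest of all. The means were 40.7 ± 2.99 CPM in Control and 53.4 ± 8.38 CPM in *FRAIL1* muscles (SD, n = 6), with a log2 fold change of 0.39 ± 0.0913 (SE) and an adjusted p of 0.0254 in edgeR's quasi-likelihood test. The call was lost without Control muscle 1 (adjusted p = 0.0621), Control muscle 3 (0.0614) or *FRAIL1* muscle 1 (0.0571), and it held in the other 18 of 21 alternatives.

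Its muscle form, *Cox6a2* (chr7:128205435-128206366, minus strand), ranged from 448 to 587 CPM in Control muscles with a median of 479, and from 317 to 485 in *FRAIL1* muscles with a median of 439.9. The groups overlapped, 5 of 6 *FRAIL1* muscles lay below the Control median, and muscle 5 was the lowest. The log2 fold change was -0.24 ± 0.103 (SE) with an adjusted p of 0.146, which did not pass.

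The ratio of both forms within a muscle needs no scaling between libraries. The log2 ratio of *Cox6a2* to *Cox6a1* counts was 3.61 ± 0.12 in Control and 2.99 ± 0.39 in *FRAIL1* muscles (SD, n = 6). All 6 *FRAIL1* muscles, at 2.23 to 3.36, lay below all 6 Control muscles, at 3.46 to 3.76. The ratio thus fell by 0.63 on the log2 scale in an exact two-sided permutation test (p = 0.00216, the smallest that 924 arrangements can give, adjusted over 8 pairs 0.00866). This test treated the 12 muscles as independent, here and for the other pairs, although each mouse gave 2 of them. *FRAIL1* muscle 5 stood apart at 2.23, and without it the difference was −0.48 (exact permutation p = 0.00433, adjusted 0.0173). Per kilobase, *Cox6a1* made up 8.88% ± 0.678 of the subunit 6A transcripts in Control and 13.3% ± 3.49 in *FRAIL1* muscles (SD, n = 6), so the muscle form was the main one in both.

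Subunit 8, a single-span membrane protein, showed the same kind of difference. Its widespread form *Cox8a* (chr19:7215158-7217616, minus strand) ranged from 27.4 to 34.6 CPM in Control muscles with a median of 30.4, and from 30.8 to 50.4 in *FRAIL1* muscles with a median of 36.5. All 6 *FRAIL1* muscles exceeded the Control median, with muscle 5 the highest and muscles 2 and 3 within the Control range. The muscle form *Cox8b* (chr7:140898942-140900446, minus strand) ranged from 222 to 324 CPM in Control muscles with a median of 261, and from 186 to 239 in *FRAIL1* muscles with a median of 227. Here all 6 lay below the Control median, with muscle 5 the lowest, and the groups overlapped. Neither gene passed the test on its own, with log2 fold changes of 0.32 ± 0.112 (SE) for *Cox8a* (adjusted p = 0.0890) and -0.29 ± 0.0999 (SE) for *Cox8b* (adjusted p = 0.0854).

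The log2 ratio of *Cox8b* to *Cox8a* counts was 3.13 ± 0.11 in Control and 2.55 ± 0.37 in *FRAIL1* muscles (SD, n = 6). It was lower in each *FRAIL1* muscle, at 1.88 to 2.96, than in any Control muscle, at 3.02 to 3.32. The ratio fell by 0.58 on the log2 scale (exact two-sided permutation p = 0.00216, again the smallest possible, adjusted 0.00866), and without *FRAIL1* muscle 5 by 0.45 (adjusted exact permutation p = 0.0173). The share of *Cox8a* per kilobase was 6.98% ± 0.479 in Control and 10.3% ± 2.57 in *FRAIL1* muscles (SD, n = 6). Isoforms of either subunit share no identical run longer than 12 bases.

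**Figure D3:**
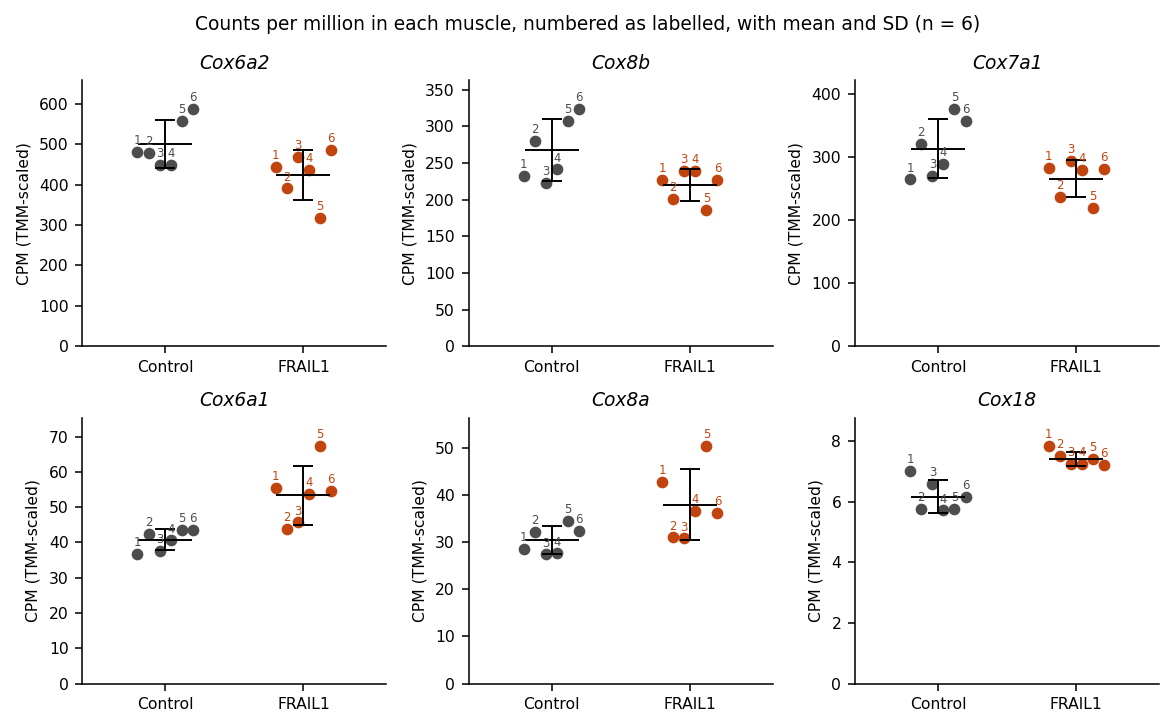
CPM (TMM-scaled) of 3 muscle isoforms of complex IV subunits (upper row), 2 widespread isoforms and the assembly factor *Cox18* (lower row) in each muscle, with the mean and SD of 6 Control (gray) and 6 *FRAIL1* muscles (orange) and the labelled muscle numbers. The *FRAIL1* muscles lie lower on average in the upper row and higher in the lower row, and muscle 5 is the lowest for *Cox6a2*, *Cox8b* and *Cox7a1* and the highest for *Cox6a1* and *Cox8a*.

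Subunit 7A has the muscle form *Cox7a1* and the widespread form *Cox7a2*. *Cox7a1* ranged from 264 to 376 CPM in Control muscles with a median of 305, and from 219.6 to 293 in *FRAIL1* muscles with a median of 279.8. All 6 *FRAIL1* muscles were below the Control median, and the log2 fold change of -0.24 ± 0.10 (SE) did not pass (adjusted p = 0.141). *Cox7a2* had only 26 to 79 counts per muscle, and its log2 fold change of -0.20 ± 0.258 (SE) had a confidence interval of -0.74 to 0.35. The log2 ratio of both had a wide spread, 8.29 ± 0.56 in Control and 8.18 ± 0.38 in *FRAIL1* muscles (SD, n = 6), and its difference of -0.11 did not pass (exact permutation p = 0.654, adjusted 0.654).

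The remaining 5 pairs did not pass after adjustment. *Cox4i2*, the form of subunit 4 known from lung, had 104 to 151 counts per muscle and a log2 ratio to *Cox4i1* of -8.64 ± 0.16 in Control and -8.79 ± 0.09 in *FRAIL1* muscles (SD, n = 6), a difference of −0.15 (exact permutation p = 0.0433, adjusted 0.0866). Without *FRAIL1* muscle 5 that difference was −0.19 and passed (adjusted exact permutation p = 0.0231). *Cox6b2*, the testis form of subunit 6B, had 19 to 41 counts, and its ratio to *Cox6b1* differed by 0.10 (adjusted exact permutation p = 0.654). The c ring of ATP synthase is made of 1 protein encoded by 3 genes, of which *Atp5g3* and *Atp5g1* had the most counts here. Copies cover 100% of *Atp5g2*, 69.0% of *Atp5g1* and 0% of *Atp5g3*. Counts of uniquely mapped reads therefore cannot show which of the 3 genes is minor. The log2 ratio of *Atp5g1* to *Atp5g3* was -0.94 ± 0.05 in Control and -1.16 ± 0.23 in *FRAIL1* muscles (SD, n = 6) and differed by −0.22 (exact permutation p = 0.0216, adjusted 0.0577). That ratio passed without *FRAIL1* muscle 2 (−0.26, adjusted exact permutation p = 0.0346) or muscle 3 (−0.26, 0.0462). The ratios of *Atp5g1* and *Atp5g3* to *Atp5g2* differed by −0.14 and 0.08, both with an adjusted exact permutation p of 0.654.

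**Figure D4:**
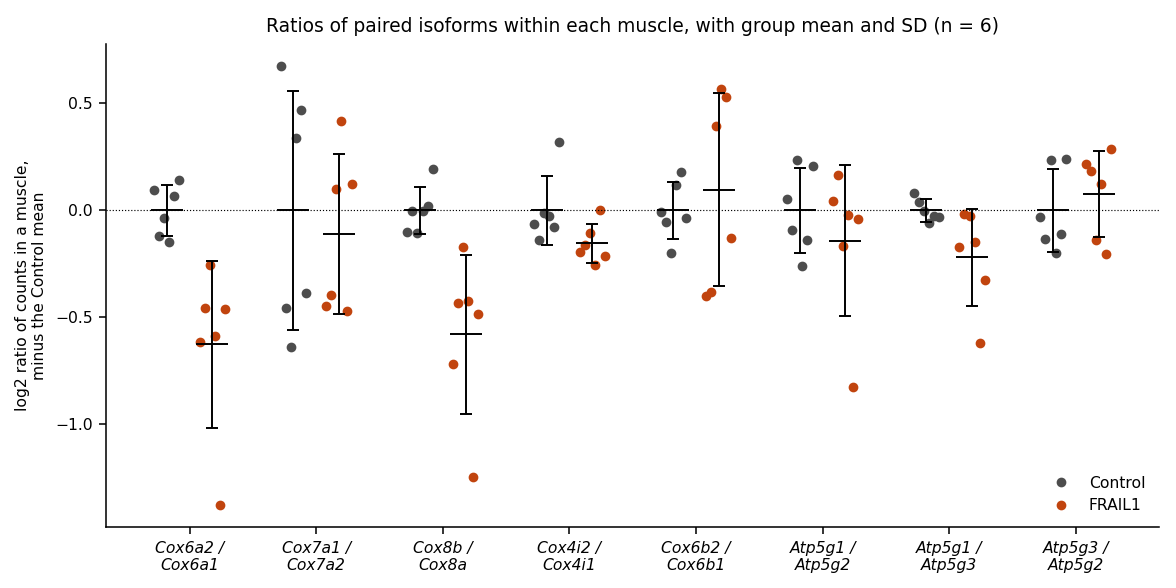
Log2 ratio of the counts of paired isoforms in each muscle, minus the mean of the 6 Control muscles (gray), with mean and SD per group, *FRAIL1* in orange. For *Cox6a2* / *Cox6a1* and *Cox8b* / *Cox8a* all 6 *FRAIL1* muscles lie below all 6 Control muscles, and the mean differences are −0.63 and −0.58.

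Several lists of fiber type and cell type markers also differed between the groups. Markers of satellite cells and regenerating fibers had positive log2 fold changes in 7 of 7 genes, of which 4 passed (median 1.35). Those that passed were *Myog*, *Myh3*, *Myh8* and *Ncam1*. *Pax7*, *Myf5* and *Myod1* had 0.56, 0.72 and 0.36 and did not pass (edgeR, adjusted p = 0.0634, 0.0645 and 0.0725). The summed level of the list, mostly *Myh3* and *Myh8*, was 179 to 229.6 CPM in Control and 351 to 1597 CPM in *FRAIL1* muscles. The embryonic myosin *Myh3* ranged from 41.6 to 62.6 CPM in Control muscles with a median of 50.0, and from 105 to 541 in *FRAIL1* muscles with a median of 199. Slow-fiber markers were positive in 6 of 7 genes, of which 4 passed (median 0.90, summed 154 to 267 CPM in Control and 238 to 617 CPM in *FRAIL1* muscles). The 4 were the slow troponins *Tnni1*, *Tnnt1* and *Tnnc1* and the calcium pump *Atp2a2*, while the slow myosin genes did not follow: *Myh7* and *Myl2* had 5 of 6 *FRAIL1* muscles below the Control median, and *Myl3* had a log2 fold change of -0.49 (edgeR, adjusted p = 0.614). Fast-fiber markers were negative in 7 of 9, with 0 called (6 at an unadjusted edgeR p under 0.05). *FRAIL1* muscle 5 had the lowest ratios of *Cox6a2* to *Cox6a1* and of *Cox8b* to *Cox8a*. It also had the highest sums of regenerating-fiber (1597), slow-fiber (617) and fibroblast markers (6449) and the lowest of fast-fiber markers (116449). By the median log2 difference from the Control mean, slow-fiber markers were highest in *FRAIL1* muscle 6 (1.91, against 1.58 in muscle 5). The macrophage (634) and endothelial sums (386) of muscle 5 lay within the range of the other *FRAIL1* muscles. Its adipocyte sum (139) was the highest of the *FRAIL1* muscles. Most of the adipocyte sum was *Fabp4*, with means of 146 CPM in Control and 123 CPM in *FRAIL1* muscles. The collagen genes *Col1a1*, *Col1a2* and *Col3a1* made up most of the mean fibroblast sum in both groups. Of the other cells of muscle, macrophage markers were positive in 10 of 10 genes with 0 called (8 at an unadjusted p under 0.05, median 0.69, summed 242 to 384 CPM in Control and 309 to 796 CPM in *FRAIL1* muscles). Fibroblast markers were positive in 7 of 8 with 1 called (median 0.59, summed 1532 to 2877 CPM in Control and 2907 to 6449 CPM in *FRAIL1* muscles). Endothelial markers were negative in 7 of 7 with 3 called (median -0.25, summed 420.3 to 474 CPM in Control and 329 to 420.0 CPM in *FRAIL1* muscles), and adipocyte markers in 3 of 4 tested with 0 called (1 higher and 1 lower at an unadjusted p under 0.05, median -0.41, summed 132 to 175 CPM in Control and 115 to 139 CPM in *FRAIL1* muscles). *Myh2*, the myosin of oxidative fast fibers, had a log2 fold change of -0.21 ± 0.631 (SE) and an adjusted p of 0.862. The uncoupling protein gene *Ucp1* was the only marker listed at 0 in any muscle. The part of these cells and fibers in the isoform ratios was not tested.

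**Figure D5:**
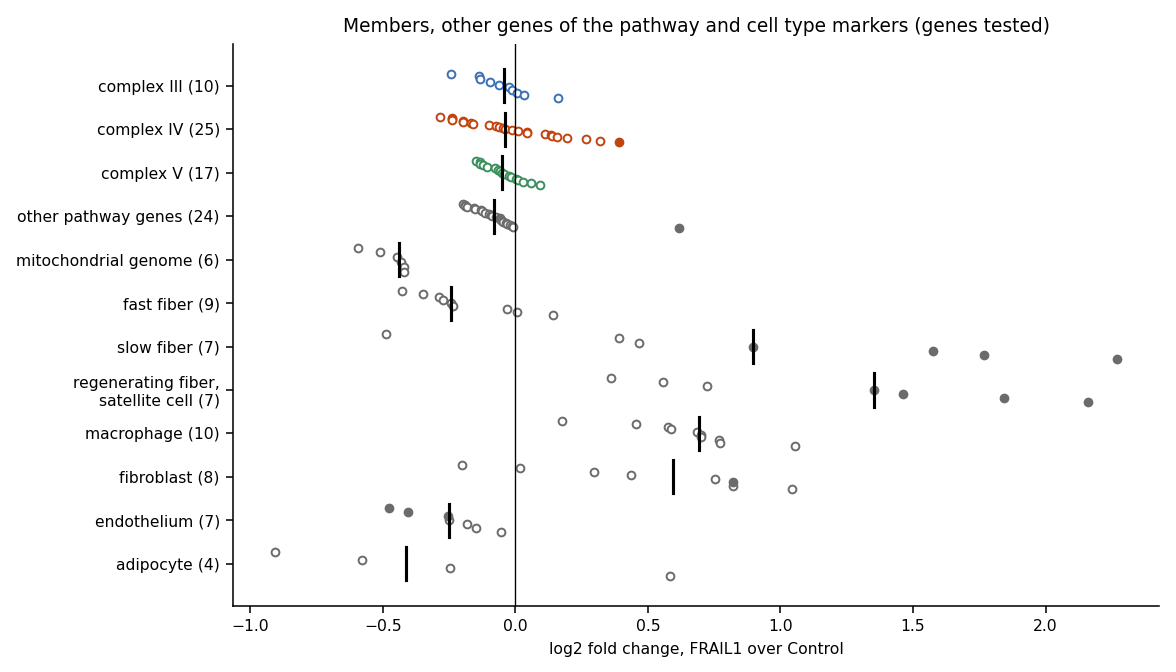
Log2 fold change of each gene tested, *FRAIL1* over Control on the TMM scale, for the members by complex, other genes of the pathway, the mitochondrial genes of the same complexes, and marker lists, with the number of genes in brackets and a bar at the median. Filled points passed edgeR's test, and members span −0.29 to 0.39 while regenerating-fiber and slow-fiber markers reach 2.16 and 2.27.

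The promoters of 4 isoform genes are printed here, and the RNA data do not measure their activity. Only *Cox8a* and *Cox8b* among them are forms of the same subunit. *Cox6a2* had no promoter in the source used, and that listed for *Cox7a2*, 11569 bases from the gene start, is not printed. Each line gives the 250 bases before the annotated start in GRCm38.p6 (RefSeq), 5′ to 3′ on the gene's strand, with motif matches in capitals. *Cox6a1* (chr5:115348959-115349208, minus strand) is shown as the gene that passed the test, and *Cox8a* (chr19:7217617-7217866, minus strand) as another widespread form. *Cox8b* (chr7:140900447-140900696, minus strand) and *Cox7a1* (chr7:30183921-30184170, plus strand) are shown as muscle forms.
Cox6a1: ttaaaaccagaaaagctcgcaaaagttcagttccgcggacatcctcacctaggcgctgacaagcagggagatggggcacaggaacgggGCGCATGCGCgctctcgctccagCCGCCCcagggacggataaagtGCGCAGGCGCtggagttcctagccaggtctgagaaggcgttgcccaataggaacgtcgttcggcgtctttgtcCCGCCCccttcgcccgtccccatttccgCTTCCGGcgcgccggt
Cox8a: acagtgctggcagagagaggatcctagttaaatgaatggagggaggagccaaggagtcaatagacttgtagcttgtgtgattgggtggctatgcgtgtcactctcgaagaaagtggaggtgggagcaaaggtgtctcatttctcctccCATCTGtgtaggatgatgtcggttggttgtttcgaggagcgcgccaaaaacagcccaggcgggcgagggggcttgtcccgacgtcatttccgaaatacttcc
Cox8b: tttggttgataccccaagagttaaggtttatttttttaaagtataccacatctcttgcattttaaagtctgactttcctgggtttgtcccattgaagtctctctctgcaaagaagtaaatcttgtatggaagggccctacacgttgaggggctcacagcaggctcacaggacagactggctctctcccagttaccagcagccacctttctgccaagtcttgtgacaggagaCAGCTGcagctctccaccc
Cox7a1: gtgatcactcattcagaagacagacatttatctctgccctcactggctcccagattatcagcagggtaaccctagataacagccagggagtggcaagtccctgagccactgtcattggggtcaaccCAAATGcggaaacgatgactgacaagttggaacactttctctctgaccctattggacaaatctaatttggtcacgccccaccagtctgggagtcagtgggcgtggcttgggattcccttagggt

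The motifs searched on both strands were the E-box CANNTG, the ETS core CCGGAAG, the GC box GGGCGG, the TATA box TATAAA, the core of the NRF1 site (GCGC, any base, then TGCGC) and the core of the MEF2 site (CTA, any 4 bases, then TAG), and no matches overlapped in the 4 promoters. *Cox6a1* held 2 NRF1 cores, 1 ETS core and 2 GC boxes in a window of 62.8% GC with 26 CpG. The medians were 52.0% and 6 CpG over 27025 promoters, and 54.4% and 14 CpG over the 43 members with a promoter. NRF1 and the ETS factor GABP are known regulators of respiratory chain genes. *Cox8a* held 1 E-box and 11 CpG, *Cox8b* 1 E-box and 1 CpG, and *Cox7a1* 1 E-box and 4 CpG. The promoter listed for *Cox7a2* held 1 E-box, 1 GC box and 14 CpG. Of 43 members with a promoter in the table, 5 held the NRF1 core (11.6%, against 3.87% of all promoters), 10 the ETS core (23.3% against 7.07%), 18 the GC box (41.9% against 33.0%), 27 the E-box (62.8% against 66.1%), 4 the TATA box (9.30% against 13.0%) and 1 the MEF2 core (2.33% against 3.23%). A match describes the letters and not the binding of a factor.

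In the rest of complex IV, most subunits without a muscle form had lower means in *FRAIL1* muscles, and none passed the test. Of these 7 genes, 6 had negative log2 fold changes, from -0.17 for *Cox5a* to -0.04 for *Cox5b*, and *Cox6b1*, which closes the enzyme on the outer face, had 0.04. Without the TMM factors *Cox4i1* had 0.07 in place of -0.07. *Cox5a*, a subunit on the matrix side, ranged from 301 to 352 CPM in Control muscles with a median of 333, and from 251 to 331 in *FRAIL1* muscles with a median of 296. *Cox6c*, a small membrane subunit, ranged from 297 to 346 CPM in Control muscles with a median of 321, and from 254 to 312 in *FRAIL1* muscles with a median of 294. For both genes all 6 *FRAIL1* muscles lay below the Control median while the groups overlapped, with log2 fold changes of -0.17 ± 0.0715 (SE) (edgeR, adjusted p = 0.148) and -0.16 ± 0.0655 (SE) (0.127). *Cox4i1*, with the highest CPM among the complex IV members, was at 997 ± 57.5 CPM in Control and 948 ± 67.2 CPM in *FRAIL1* muscles (SD, n = 6).

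Of the 9 complex IV assembly factors among the members, 6 had positive log2 fold changes, without a call in edgeR. All 10 tested from the list of other genes had negative ones. Without the TMM factors, 8 of the 9 and 7 of the 10 were positive. *Cox18* (chr5:90214724-90224595, minus strand), which inserts part of the mitochondrially encoded COX2 protein into the membrane, ranged from 5.70 to 7.0 CPM in Control muscles with a median of 5.96, and from 7.22 to 7.82 in *FRAIL1* muscles with a median of 7.33. The groups did not overlap, and the *FRAIL1* muscles lay closer together than the Control muscles. The log2 fold change of 0.27 ± 0.0786 (SE) had an adjusted p of 0.0548, and it passed in 4 of 21 alternatives, DESeq2 among them. *Cox20*, a chaperone of COX2, and *Cox15*, which makes heme A, had all 6 *FRAIL1* muscles above the Control median, with log2 fold changes of 0.14 and 0.11 (adjusted p = 0.222 and 0.219 in edgeR). *Cox19*, of the copper pathway, had 0.16 and *Cox14*, which acts early on COX1, 0.13 (adjusted p = 0.120 and 0.197). *Cox10*, the other enzyme of heme A synthesis, went the opposite way from *Cox15*, with -0.20 ± 0.0932 (SE) and 5 of 6 *FRAIL1* muscles below the Control median (edgeR, adjusted p = 0.179). The copper chaperone *Cox17*, the copper factor *Cox11* and *Cox16* had 0.04, -0.06 and -0.01. The supercomplex factor *Cox7a2l* was at 83.0 ± 4.10 CPM in Control and 83.5 ± 3.82 CPM in *FRAIL1* muscles (SD, n = 6), with a log2 fold change of 0.01 and a confidence interval of -0.10 to 0.12.

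In complex III no gene passed the test, and the farthest from 0 was an assembly factor. *Uqcc1*, which with *Uqcc2* supports the making of cytochrome b, ranged from 129 to 137 CPM in Control muscles with a median of 134, and from 83.5 to 130.0 in *FRAIL1* muscles with a median of 114. All 6 *FRAIL1* muscles lay below the Control median and 5 below all Control muscles, muscle 5 the lowest. The log2 fold change was -0.24 ± 0.0855 (SE) with an adjusted p of 0.0896 in edgeR, and it passed without *FRAIL1* muscle 3 (0.0391). Its partner *Uqcc2* showed no such difference, at 91.1 ± 7.57 CPM in Control and 91.6 ± 8.64 CPM in *FRAIL1* muscles (SD, n = 6), and *Uqcc3* had 0.16 ± 0.0910 (SE) (adjusted p = 0.263). Of the 7 subunits tested, *Uqcrb*, at the ubiquinone pocket, and *Uqcrq* had the most negative values, -0.14 ± 0.0643 (SE) and -0.13 ± 0.0715 (SE) (adjusted p = 0.176 and 0.240), and both turned to values near 0 without the TMM factors (0.0049 and 0.0097). The core proteins *Uqcrc1* and *Uqcrc2*, the Rieske iron-sulfur protein *Uqcrfs1*, the hinge protein *Uqcrh* and *Uqcr10* lay between -0.10 and 0.03. *Uqcrc1* was at 827 ± 50.5 CPM in Control and 774 ± 74.1 CPM in *FRAIL1* muscles (SD, n = 6), and *Uqcrh* at 174 ± 12.4 CPM in Control and 178 ± 16.7 CPM in *FRAIL1* muscles (SD, n = 6).

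In ATP synthase, whose members are all subunits, no gene passed the test, and 0 of 17 had an unadjusted edgeR p under 0.05. Its log2 fold changes ran from -0.15 for the gamma subunit *Atp5c1* to 0.09 for *Atp5g3*. In the catalytic F1 head 4 of 5 genes were negative: *Atp5b* had -0.11 ± 0.0710 (SE), *Atp5a1* -0.13 ± 0.0799 (SE), *Atp5c1* -0.15 ± 0.0743 (SE) and *Atp5e*, the epsilon subunit, -0.13 ± 0.0815 (SE), while *Atp5d*, the delta subunit, was at 0.00. Without the TMM factors *Atp5b*, *Atp5a1* and *Atp5e* had 0.0342, 0.0073 and 0.0067. *Atp5b*, the gene with the highest CPM among the members, ranged from 3417 to 3919 CPM in Control muscles with a median of 3651, and from 2994 to 3764 in *FRAIL1* muscles with a median of 3359. The groups overlapped, with 5 of 6 *FRAIL1* muscles below the Control median.

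The peripheral stalk, which holds the head still, lay closer to 0, from -0.08 for *Atp5h* to -0.02 for *Atp5pb*, with *Atp5o* and *Atp5j* between them. The small membrane subunits *Atp5md*, *Atp5k*, *Atp5j2*, *Atp5l* and *Atp5mpl* lay between -0.07 and 0.06. Of the genes for subunit c, *Atp5g3* was at 571 ± 40.6 CPM in Control and 609 ± 50.9 CPM in *FRAIL1* muscles (SD, n = 6) and *Atp5g1* at 298 ± 21.5 CPM in Control and 274 ± 33.3 CPM in *FRAIL1* muscles (SD, n = 6), with log2 fold changes of 0.09 ± 0.0722 (SE) and -0.12 ± 0.0832 (SE). *Atp5g2*, with 88 to 151 counts per muscle, had 0.03 ± 0.145 (SE).

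On the TMM scale, other nuclear genes of these enzymes, listed by function rather than by name and mostly assembly factors, had lower means in *FRAIL1* muscles, with 1 exception. Of 24 tested, 23 had negative log2 fold changes (median −0.081) and none of these passed (3 at an unadjusted edgeR p under 0.05). Assembly factors made up 17 of the 23, from -0.19 for *Coa7* to -0.02 for *Coa5*, both of complex IV. Without the TMM factors 12 of these 17 had positive values (median 0.072), while all 17 stayed below the median of all genes in that scaling. The exception was *Atpif1*, the inhibitor that stops ATP synthase from running backwards, which ranged from 15.1 to 20.5 CPM in Control muscles with a median of 17.6, and from 19.3 to 37.0 in *FRAIL1* muscles with a median of 27.6. It was higher in *FRAIL1* muscles with a log2 fold change of 0.62 ± 0.135 (SE) and an adjusted p of 0.0211 in edgeR, 6 of 6 muscles lay above the Control median, and the groups overlapped. *Ttc19*, a complex III factor, was the single gene of this list whose groups did not overlap downwards, at 45.8 ± 1.66 CPM in Control and 40.4 ± 2.40 CPM in *FRAIL1* muscles (SD, n = 6) (log2 fold change -0.18, adjusted p = 0.0507). *Ndufa4*, a subunit of complex IV first assigned to complex I, had -0.20 ± 0.0713 (SE) (adjusted p = 0.0956). The list also held *Sco2* and *Pet117*, which had too few counts to test.

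The mitochondrially encoded partners of these subunits had lower means than the nuclear genes relative to Control. All 6 genes had negative log2 fold changes (median -0.44), 0 passed the adjusted test in edgeR and 5 had an unadjusted p under 0.05. COX1, the catalytic subunit of complex IV, ranged from 37062 to 45278 CPM in Control muscles with a median of 43163, and from 20475 to 38605 in *FRAIL1* muscles with a median of 33137. CYTB, the cytochrome b of complex III, ranged from 18471 to 21930.0 CPM in Control muscles with a median of 20195, and from 9926 to 18493 in *FRAIL1* muscles with a median of 15636. In both, 5 of 6 *FRAIL1* muscles lay below all Control muscles, and muscle 5 was the lowest. The log2 fold changes were -0.43 ± 0.127 (SE) for COX1 (adjusted p = 0.0553) and -0.42 ± 0.122 (SE) for CYTB (adjusted p = 0.0532), just short of the threshold, and each passed in 8 of 21 alternatives. COX2, COX3, ATP6 and ATP8 were counted at far lower levels, from 0.947 CPM for ATP8 to 13.1 for COX2 in Control muscles, and had log2 fold changes of -0.51, -0.42, -0.45 and -0.59. COX2 was nearest to the threshold (adjusted p = 0.0501 in edgeR) and also passed in 8 of 21 alternatives, the other 3 in none. What set these 4 so far below COX1 and CYTB in the counting was not tested. No difference between the nuclear and the mitochondrial genes was tested.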

How the data were processed

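RNA from 12 muscles (6 Control, 6 *FRAIL1*) was sequenced as 150-base paired-end reads. The authors trimmed the reads with Trimmomatic, mapped them to mm10 with RNA-star (2.7.8a) and counted uniquely mapping reads per gene with featureCounts (2.0.1), and the deposited values are raw counts per gene, without normalization. Of 27179 genes, 25275 were matched to a symbol of GRCm38.p6.

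After filterByExpr, 15502 genes remained. Libraries were scaled by TMM, and groups were compared with edgeR 4.0.16 (robust quasi-likelihood fit, R 4.3.3) without a term for the mouse, and p-values were adjusted by Benjamini-Hochberg over all genes (threshold 0.05). Isoform ratios were compared with exact two-sided permutation tests over muscles (SciPy 1.17.1), for pairs with at least 10 counts in every muscle. On counts drawn at random for these 15502 genes the edgeR test recovered 57% of genes changed 1.5-fold and 76% of those changed 2-fold, with 6 false calls. The members tested lay between 0.82-fold (*Cox8b*) and 1.31-fold (*Cox6a1*), so these rates do not give the recovery at their sizes. The simulated libraries were drawn independently, without a shared mouse. Copies were searched with BLAST 2.17.0 among annotated transcripts of other genes, including genes that overlap a member (at least 98% identity over 100 bases). Depth limits mainly genes with few counts. The p-values measure the spread between muscles, 2 of which came from each mouse.

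The members, gene lists and tests were chosen with earlier results of these data known. The genes named are those past the threshold, both genes of each isoform pair, per complex the 2 highest per kilobase and the 3 with the largest rise and fall, the untested members and the 6 mitochondrial genes. Other members, *Atpif1*, *Ttc19*, *Ndufa4*, *Coa5*, *Coa7*, the single fiber type and cell type markers and the untested genes of the lists were named after their values were seen. The grouping of subunits by place in the enzyme and of the other list's assembly factors was also made then. Alternatives were the replicate block, DESeq2 1.42.0 and its size factors, TMM that left out mitochondrial genes and the top 20 genes, other filters (none, or 10 counts or more per muscle), 0.5 added to each count of a ratio, and each muscle left out. Leaving out both muscles numbered 5, total counts without TMM factors and upper-quartile scaling were chosen after seeing the data.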

Additional observations from a re-analysis of the deposited data

Results flagged for a closer look

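Among 82 groups of 6 values examined for a value far from the others (Dixon's test, the gap to the nearest value over 0.625 of the range), 5 stood out, and chance flags about 1 in 20 groups. In 3 of them the value was that of *FRAIL1* muscle 5: the *Cox6a2* to *Cox6a1* log2 ratio was 2.23 with the nearest at 3.0, the *Atp5g1* to *Atp5g2* log2 ratio was 6.30 with the nearest at 6.96, and COX2 was at 6.04 CPM with the nearest at 9.40. In the other 2 it was Control muscle 6: *Cox4i2* was at 3.31 CPM with the nearest at 2.52, and its log2 ratio to *Cox4i1* was −8.32 with the nearest at −8.65. *FRAIL1* muscle 5 also had the highest TMM factor (1.19).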

How the results depend on the processing

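The fall of both isoform ratios held in all 12 fits that left out a muscle (*Cox6a2* to *Cox6a1* −0.70 to −0.48, *Cox8b* to *Cox8a* −0.66 to −0.45) and without both muscles numbered 5 (−0.46 and −0.44). Numbers were checked for pairing: same-numbered muscles deviated together in 5 of 6 numbers (correlations 0.254, 0.162, 0.282, 0.263, 0.0547 and 0.185, mean 0.20 against −0.0400 for other numbers), and 10 of 12 muscles correlated best with their own number, a hint from the data and not from the design. With the replicate block 2186 genes passed in place of 974, 2 members were higher (*Cox6a1*, *Cox8a*), and the paired exact sign-flip test gave an adjusted p of 0.0833 for both ratios, whose differences of −0.63 and −0.58 do not change, with 0.0313 the smallest p that 6 numbers allow.

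Calls depended on the tool, the scaling and the muscles. DESeq2 called 2171 genes, with 2 members higher (*Cox18*, *Cox6a1*) and 1 lower (*Cox8b*). Total counts without TMM factors gave 2627 genes, 8 members higher (*Atp5g3*, *Cox14*, *Cox15*, *Cox18*, *Cox19*, *Cox20*, *Cox6a1*, *Cox8a*) and medians of 0.0996 for all members, 0.101 for complex III, 0.104 for complex IV and 0.0929 for complex V, beside 0.156 for all genes. Relative to that, the members' median was −0.0566, against −0.0529 with TMM. Upper-quartile scaling gave 2 members higher (*Cox18*, *Cox6a1*). Leaving out 1 muscle gave 364 to 2110 genes, with the most without *FRAIL1* muscle 3 (2110) or 2 (1579). It gave 0 to 3 members higher (0 without Control 1, Control 3 or *FRAIL1* 1; 2 without *FRAIL1* 2; 3 without *FRAIL1* 3), 0 to 1 lower (*Uqcc1* without *FRAIL1* 3), and members' medians of −0.070 to −0.0051. The cause of these shifts was not tested.

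Signs turned without TMM factors for *Atp5a1* (0.0073), *Atp5b* (0.034), *Atp5e* (0.0067), *Atp5g1* (0.018), *Cox4i1* (0.071), *Uqcrb* (0.0049), *Uqcrc1* (0.046) and *Uqcrq* (0.0097). Left-out muscles turned *Uqcc2* (lowest −0.027, highest 0.046), *Atp5g2* (−0.053 to 0.085), *Uqcrh* (−0.0013 to 0.075) and the *Cox7a1* to *Cox7a2* ratio (−0.24 to 0.024), DESeq2 turned *Uqcc2* (−0.0016), and leaving out both muscles numbered 5 turned *Atp5g2* (−0.024) and the *Cox7a1* to *Cox7a2* ratio (0.054). The *Cox4i2* to *Cox4i1* ratio passed without *FRAIL1* 5 and without both muscles numbered 5 (−0.20, adjusted exact permutation p = 0.0423), with a range of −0.19 to −0.091 over left-out muscles, and the *Atp5g1* to *Atp5g3* ratio passed without *FRAIL1* 2 or 3 (range −0.26 to −0.14). Of 672 refits of the 32 named genes tested, 614 kept their direction and side of the threshold and 20 changed sign, all 20 with values short of the threshold.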
